A study of Mus musculus with 24 samples.

Results

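Proteins that are to be secreted or placed in membranes fold in the endoplasmic reticulum (ER), where chaperones hold them and disulphide isomerases join their cysteines. When unfolded protein builds up, the sensors IRE1 (gene Ern1), ATF6 (Atf6) and PERK (Eif2ak3) start the unfolded protein response: IRE1 splices Xbp1 mRNA so that it encodes an active transcription factor, ATF6 is cut to release another, and PERK slows translation while favouring that of ATF4. XBP1 and ATF6 raise the genes of ER chaperones, which makes these mRNAs a common readout of the response in neurons, glia and secretory cells. The 10 genes described here are Hspa5 (the ER Hsp70, BiP), Hsp90b1 (the ER Hsp90, GRP94), Calr (calreticulin, a lectin chaperone that binds calcium), Pdia4 (a disulphide isomerase), Dnajb9 and Sdf2l1 (partners of HSPA5), Manf and Creld2 (secreted ER stress proteins), Herpud1 (a membrane protein of ER-associated degradation) and Xbp1 itself.

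The rows were found by gene symbol: each of the 10 symbols matched 1 identifier, out of 30270 that the 8 tables of normalized counts list. The genes were chosen by expression values of these same libraries, and the contrast that led to the choice is not recorded. All counts of members below are therefore descriptions of these libraries and no independent evidence of a direction. All 10 passed the filter on low values in every comparison, with between 39 reads (Sdf2l1) and 7528 reads (Calr) in a library.

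RNA was sequenced from the nucleus accumbens (NAc) and the ventral tegmental area (VTA), brain regions of the dopamine reward circuit, of 12 C57BL/6 mice, giving 24 libraries. In each region, 3 WT and 3 Vdr-/- mice, which lack a functional vitamin D receptor, had received morphine (5 mg/kg, intraperitoneal, 90 min before collection). Another 3 WT and 3 Vdr-/- mice had received phosphate-buffered saline (PBS), also given as 90 min before collection. The methods of the study for tissue collection give an earlier time for saline mice, and whether this held for the sequenced mice was not tested. The same mouse gave both regions. The Vdr-/- mice were kept on a diet rich in calcium and lactose, so that genotype and diet were not separated, and age and sex were not given in the labels. The libraries held 9328726 to 30184426 reads on genes. Vdr itself had 0 to 17 reads in any library and was not lower in the Vdr-/- libraries, so that the genotype labels could not be checked by it. In the sample descriptions the names of the PBS libraries carry a prefix that those of the morphine libraries lack (the table headers give it to both), and whether the PBS and morphine libraries were handled as separate sets was not tested. The deviation of each library from the mean of the other libraries of its region was also correlated with exon length. Spearman rho across genes was -0.433 to 0.101 in PBS libraries and 0.0459 to 0.239 in morphine libraries, so the ranges overlapped. The value of -0.433 was that of WT PBS mouse 2 in the NAc, and the next lowest was -0.236. The part of exon length in the results was not tested.

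Genes of medium spiny neurons, the main neurons of the NAc, summed to 1920 to 4030 CPM (reads of a gene scaled by all reads on genes of its library) in the NAc and 185 to 280 CPM in the VTA. Genes of dopamine neurons summed to 62.5 to 106 CPM in the NAc and 279 to 3456 CPM in the VTA. Within the VTA this sum was 2797 to 3456 CPM in WT PBS, 688 to 2685 in Vdr-/- PBS, 279 to 734 in WT morphine and 764 to 1461 in Vdr-/- morphine, so this sum differed between the VTA groups. The regions were taken as tissue punches, and the position of each punch was not tested. In such samples, fewer cells of a type, less RNA per cell and a different position of the punch cannot be told apart.

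The promoters are shown first. RefSeq promoter windows (GRCm38.p6, 250 bases before to 50 after the start) were at hand for 9 of the 10 genes, Manf being the other. Motifs of the unfolded protein response were searched on both strands. The ER stress response element (ERSE, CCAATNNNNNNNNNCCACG) lay in 4 of the 9 windows and in 0.119% of 32851 promoter windows of the same length. ERSE-II (ATTGGNCCACG) lay in the window of Herpud1 and in 0.0365% of all windows, and the core of the unfolded protein response element (UPRE, TGACGTGG) lay in 0 of the 9 and in 0.676% of all windows. The half-site CCACG, which both ERSE forms contain, was in 8 of the 9 windows against 32.8% of all. Capitals mark the motif, written in the direction of the gene.
Hspa5, chr2:34772020-34772048, plus strand: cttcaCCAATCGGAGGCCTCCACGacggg
Hsp90b1, upstream motif, chr10:86705598-86705694, minus strand: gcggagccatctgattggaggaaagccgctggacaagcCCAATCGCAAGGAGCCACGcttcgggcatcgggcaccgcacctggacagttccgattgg
Hsp90b1, downstream motif, chr10:86705528-86705556, minus strand: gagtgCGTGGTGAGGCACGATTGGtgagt
Calr, chr8:84847035-84847133, minus strand: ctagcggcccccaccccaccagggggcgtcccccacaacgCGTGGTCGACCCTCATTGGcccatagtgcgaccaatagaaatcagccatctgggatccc
Creld2, chr15:88819480-88819578, plus strand: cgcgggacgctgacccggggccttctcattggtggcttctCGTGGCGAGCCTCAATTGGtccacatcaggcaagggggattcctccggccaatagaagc
Herpud1, chr8:94386337-94386427, plus strand: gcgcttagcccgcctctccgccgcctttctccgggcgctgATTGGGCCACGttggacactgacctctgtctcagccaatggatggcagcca
The Hspa5 and first Hsp90b1 motifs and that of Herpud1 read along the gene, and those of Calr, Creld2 and the second of Hsp90b1 read on the opposite strand. The motif of Hspa5 ended 47 bases before the RefSeq start, inside the first exon of the gene as GENCODE M21 draws it, and the other motifs lay outside annotated exons. Motifs already known for this response were searched in genes already known for it, so matches were likely beforehand. The shares are descriptions and no evidence that the genes were controlled together here. A match of letters says nothing of binding in these tissues.

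Levels of different genes were compared per length, as CPM divided by the exon length in kilobases, over the 12 libraries of a region. Calr was the most abundant member in the NAc (95.8 ± 10.5, SD, n = 12), followed by Hsp90b1 (59.5 ± 8.60) and Hspa5 (49.8 ± 10.8), and the spreads of the last 2 overlapped. Xbp1 (19.5 ± 2.77), Herpud1 (median 16.4, from 13.3 to 18.3), Pdia4 (14.3 ± 2.78) and Dnajb9 (13.5 ± 1.50) formed a middle group whose neighbours overlapped. Creld2 (7.82 ± 1.18), Manf (7.34 ± 0.948) and Sdf2l1 (4.34 ± 0.972) were lowest. In the VTA the order began in the same way with Calr (97.7 ± 8.08), Hsp90b1 (71.2 ± 9.28) and Hspa5 (57.4 ± 11.2), and Herpud1 (26.2 ± 2.14) stood above Xbp1 (median 21.2, from 16.6 to 23.9).

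The values by library below are normalized counts, that is reads divided by a size factor set over all 24 libraries. The fold changes come from limma fits within the deposited table of each pair of groups, with p-values adjusted over all genes tested. The VTA tables of morphine against PBS leave out WT PBS mouse 3 and Vdr-/- PBS mouse 8, so those fits compare 3 morphine with 2 PBS libraries.

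**Figure D1:**
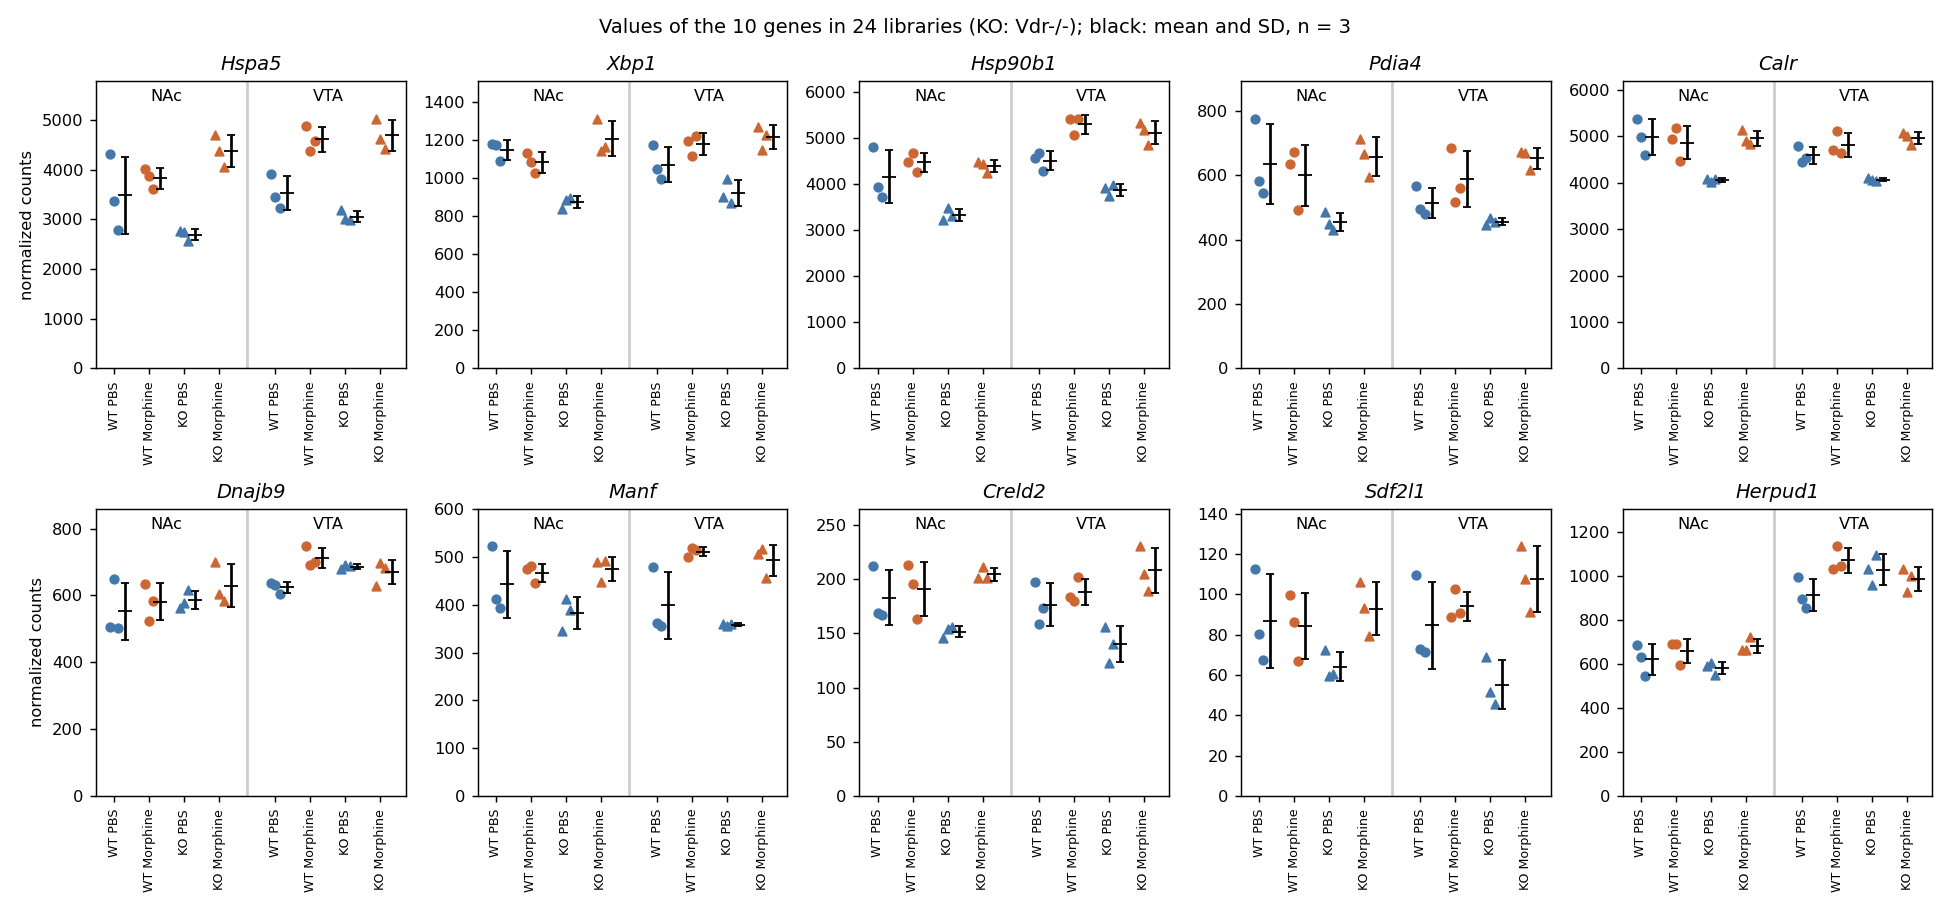
Normalized counts (vertical axes, from 0) of each of the 10 genes in 24 libraries, by group (horizontal axis), with circles for WT, triangles for Vdr-/- (KO), blue for PBS, orange for morphine, and black marks for the mean and SD of 3 mice. In Vdr-/- mice the morphine libraries lie above the PBS libraries for most genes, while the WT groups overlap more often. For Hspa5 in the NAc, Vdr-/- PBS libraries lie at 2569.5 to 2761 and Vdr-/- morphine libraries at 4049.9 to 4696.

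In the NAc of Vdr-/- mice, 9 of the 10 genes were higher after morphine than after PBS, with Hspa5 at 1.63-fold and Calr at 1.22-fold, and Dnajb9 was the gene not called. In the VTA of Vdr-/- mice, 8 of 10 were higher, with Sdf2l1 at 1.88-fold and Hspa5 at 1.51-fold. In WT mice 0 of 10 were called in either region. Of all genes tested, 9.94% were called higher in the Vdr-/- NAc, 4.74% in the Vdr-/- VTA, 0.413% in the WT NAc and 1.77% in the WT VTA. The median log2 fold change of the 10 genes was 0.42 in the Vdr-/- NAc, 0.44 in the Vdr-/- VTA, 0.08 in the WT NAc and 0.13 in the WT VTA, and that of all genes lay between -0.01 and 0.01 in each.

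Hspa5, the most general ER chaperone, had 2761, 2749 and 2569.5 counts in the NAc of the Vdr-/- PBS mice and 4696, 4375 and 4049.9 counts in the Vdr-/- morphine mice. All 3 morphine libraries stood above all PBS libraries, at a log2 fold change of 0.70 (SE 0.06, adjusted p = 0.000131, limma). In the WT NAc the PBS libraries had 4319, 3369.9 and 2779.6 counts and the morphine libraries had 4021, 3865 and 3604 counts. Here PBS mouse 1 lay above every morphine library and the log2 difference was 0.17 (95% interval -0.19 to 0.53). In the VTA, Hspa5 had 3180.4, 3004 and 2985 counts in Vdr-/- PBS and 5032, 4624 and 4422 in Vdr-/- morphine (log2 fold change 0.59, SE 0.07, adjusted p = 0.00721, limma, without mouse 8). The WT VTA held 3911, 3461 and 3221 counts after PBS and 4881, 4382 and 4583 after morphine. These WT groups did not overlap, and the log2 difference of 0.31 (95% interval 0.11 to 0.50, without mouse 3) had an adjusted p of 0.0892 (limma).

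Hsp90b1, which folds a narrower set of client proteins, had 3229, 3481 and 3309 counts in the NAc of Vdr-/- PBS mice and 4482, 4452 and 4256 in Vdr-/- morphine mice (log2 fold change 0.40, SE 0.05, adjusted p = 0.000344, limma). In the WT NAc it had 4823, 3943 and 3729 counts after PBS and 4489.9, 4678 and 4263 after morphine, and the groups overlapped through PBS mouse 1. In the VTA it rose from 3912, 3736 and 3987 counts to 5342, 5173 and 4861 in Vdr-/- mice (log2 fold change 0.37, SE 0.05, adjusted p = 0.0133, limma). In the WT VTA it had 4582, 4673 and 4283 counts after PBS and 5431, 5072 and 5413 after morphine. These groups did not overlap, with a log2 difference of 0.18 (95% interval 0.03 to 0.33, adjusted p = 0.154, limma).

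Calr, which holds glycoproteins until they are folded, had 4086, 4011 and 4083 counts in the NAc of Vdr-/- PBS mice and 4100.5, 4061 and 4029.6 in the VTA. Vdr-/- morphine mice had 5137, 4887 and 4836 counts in the NAc and 5064, 5009 and 4816 in the VTA. The log2 fold change was 0.29 in the NAc (SE 0.05, adjusted p = 0.00155, limma) and 0.28 in the VTA (SE 0.05, adjusted p = 0.0183, limma). In WT mice Calr ranged from 4470.0 to 5380.1 counts in the NAc and from 4448 to 5117 in the VTA, with overlapping groups in both.

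Pdia4 had 486, 449 and 431 counts in Vdr-/- PBS and 713, 664 and 593 in Vdr-/- morphine in the NAc (log2 fold change 0.53, SE 0.08, adjusted p = 0.00127, limma). In the VTA it had 446, 468 and 453 counts in Vdr-/- PBS and 672, 668 and 616 in Vdr-/- morphine (log2 fold change 0.52, SE 0.07, adjusted p = 0.00851, limma). In both regions of Vdr-/- mice all morphine libraries were higher. In the WT NAc, Pdia4 had 776, 582 and 545 counts after PBS and 635, 672 and 492 after morphine, and in the WT VTA 566, 496 and 478 after PBS and 686, 517 and 559 after morphine, so both pairs of WT groups overlapped.

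Xbp1, the transcription factor of the IRE1 arm, had 839, 888 and 895 counts in the NAc of Vdr-/- PBS mice, the lowest 3 of the 12 NAc libraries. The Vdr-/- morphine mice had 1315, 1147 and 1164 counts (log2 fold change 0.47, SE 0.06, adjusted p = 0.000728, limma). WT mice had 1183, 1178 and 1089 counts after PBS and 1136, 1089 and 1026 after morphine, a log2 difference of -0.07 (95% interval -0.25 to 0.11). In the VTA, Xbp1 had 902, 998 and 869 counts in Vdr-/- PBS and 1273, 1148 and 1227 in Vdr-/- morphine (log2 fold change 0.45, SE 0.06, adjusted p = 0.0101, limma), against 1175, 1047 and 995 in WT PBS and 1199, 1116 and 1225 in WT morphine. Counts per gene join the spliced and unspliced forms of Xbp1 mRNA, so the splicing by IRE1 was not measured.

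Manf and Creld2, small proteins made and secreted under ER stress, were also called in both regions of Vdr-/- mice. Manf had 346, 412 and 390.2 counts after PBS and 489, 447 and 492 after morphine in the NAc (log2 fold change 0.32, SE 0.08, adjusted p = 0.0185, limma), and 360.2, 355 and 359.7 against 506, 517 and 456 in the VTA (0.44, SE 0.08, adjusted p = 0.0208, limma). Rbm15b is annotated on the same strand at positions overlapping Manf, and the effect of this on the counts of Manf was not tested. Creld2 had 145, 154 and 156 counts after PBS and 201, 211 and 201 after morphine in the NAc (0.43, SE 0.09, adjusted p = 0.0088, limma), and 156, 123 and 140.2 against 230.2, 205 and 189 in the VTA (0.47, SE 0.12, adjusted p = 0.0486, limma). In the WT VTA, Manf stood at 479, 362 and 356 counts after PBS and 501, 518 and 514 after morphine. Those 2 groups did not overlap, although the log2 difference of 0.28 was not called (adjusted p = 0.234, limma).

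Sdf2l1, which slows the aggregation of HSPA5 clients, was the least abundant member and had the largest log2 fold change of the 10 in the VTA. It had 69.0, 51.5 and 45.5 counts in Vdr-/- PBS and 124, 108 and 91.1 in Vdr-/- morphine there (log2 fold change 0.91, SE 0.22, adjusted p = 0.0443, limma). In the Vdr-/- NAc it had 72.3, 59.5 and 60.7 counts after PBS and 106, 93.3 and 79.6 after morphine (0.53, SE 0.16, adjusted p = 0.0376, limma). WT PBS mouse 1 reached 113 counts in the NAc and 109 in the VTA, above every WT morphine library of either region.

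Herpud1 and Dnajb9, which serve the degradation of ER proteins, did not follow the other 8 in both regions. Herpud1 had 590.3, 605 and 552 counts in Vdr-/- PBS and 665, 665 and 721 in Vdr-/- morphine in the NAc (log2 fold change 0.24, SE 0.06, adjusted p = 0.0243, limma). In the VTA it had 1034, 958 and 1097 counts in Vdr-/- PBS and 1033, 929 and 1000.1 in Vdr-/- morphine, overlapping groups with a log2 difference of -0.12 (95% interval -0.27 to 0.03, without mouse 8). Dnajb9 had 563, 577 and 616 counts after PBS and 701, 606 and 582 after morphine in the Vdr-/- NAc, where the groups overlapped (0.11, 95% interval -0.06 to 0.27). In the Vdr-/- VTA it had 678, 692 and 688 counts after PBS and 629, 696 and 683 after morphine (-0.04, 95% interval -0.19 to 0.11).

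**Figure D2:**
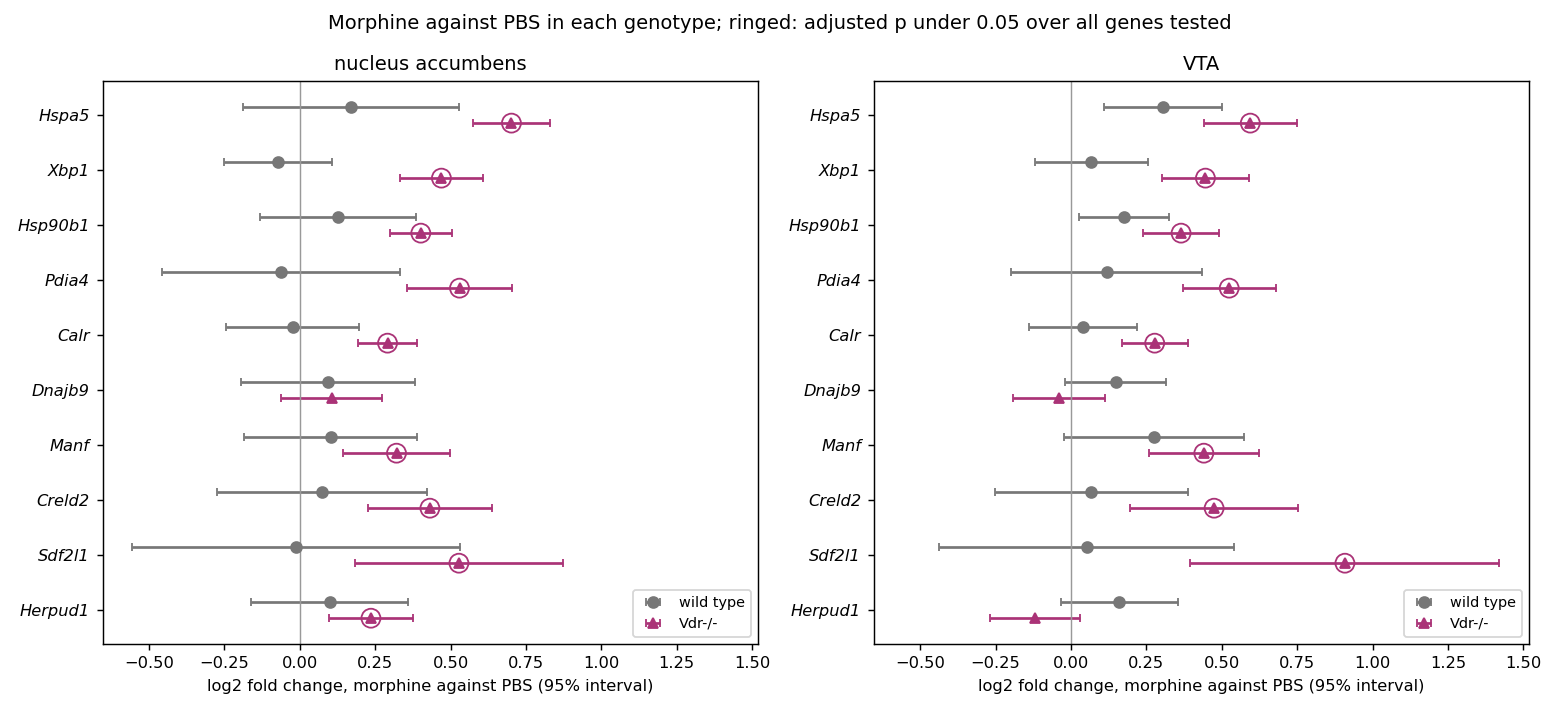
Log2 fold change of morphine against PBS (horizontal axis, points with 95% intervals) for each gene (vertical axis) in the nucleus accumbens (left) and VTA (right), grey circles for WT and purple triangles for Vdr-/-, with rings at adjusted p under 0.05. In the nucleus accumbens 9 Vdr-/- points are ringed, in the VTA 8, and 0 WT points are ringed in either; the intervals of the genotypes overlap for many genes.

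By the libraries themselves, every Vdr-/- morphine library lay above every Vdr-/- PBS library of the tables for 9 genes in the NAc, against 18.5% of all genes, and for 8 in the VTA, against 23.7%. In WT mice this held for 0 genes in the NAc, against 12.3% of all genes, and for 5 in the VTA (Hspa5, Hsp90b1, Manf, Herpud1 and Dnajb9), against 21.3%. The median log2 fold change of 0.13 in the WT VTA was 0.22 without PBS mouse 1 and 0.044 without PBS mouse 2. Each of these fits holds only 1 PBS library. With all 3 PBS mice in the VTA fits, 2 genes were called in WT mice (Hspa5 and Hsp90b1, against 5.64% of all genes called higher) and 8 in Vdr-/- mice (against 3.58%). When all 4 groups of a region were fitted together, so that both genotypes shared an estimate of the spread, 0 genes were called in the WT NAc (3% of all genes were called higher), 6 in the Vdr-/- NAc (3.85%), 4 in the WT VTA (9.35%) and 8 in the Vdr-/- VTA (4.06%). This joint fit was chosen after seeing the data. In it the WT VTA calls were Hspa5, Hsp90b1, Manf and Dnajb9, and Manf, Sdf2l1 and Herpud1 were no longer called in the Vdr-/- NAc. Without morphine mouse 2.1 or 2.2, the 8 calls of the first Vdr-/- VTA fit fell to 5 or 4. Leaving out PBS mouse 7 or 9 leaves only 1 PBS library in that fit, so no counts are given for it. With 1 mouse of either injection left out, the median log2 fold change in the Vdr-/- VTA ran from 0.41 to 0.47.

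Whether the morphine effect differed between genotypes was tested directly by the interaction in each region. In the NAc limma called 0 of the 10, and 0% of all 15788 genes tested (916 had an unadjusted p under 0.05). In the VTA it called 0 of the 10, against 0.0553% of all genes. The effect was the larger in Vdr-/- mice for 10 of 10 genes in the NAc (median difference 0.34 on the log2 scale), against 47.7% of all genes. In the VTA this held for 8 of 10 (0.26), against 49.8% of all genes. Dnajb9 lay near 0 in the NAc, at 0.0045 to 0.013 over settings with all mice and -0.10 to 0.080 with 1 mouse left out. Most of the 10 genes moved together across libraries, so these signs are not separate observations. For Xbp1 the difference was 0.54 (95% interval 0.33 to 0.76, adjusted p = 0.814, limma) in the NAc and 0.38 (0.15 to 0.60, adjusted p = 0.194, limma) in the VTA. For Hspa5 it was 0.53 (0.15 to 0.92, adjusted p = 0.832, limma) and 0.29 (0.04 to 0.53, adjusted p = 0.341, limma). Herpud1 ran the other way in the VTA, at -0.28 (-0.51 to -0.05, adjusted p = 0.336, limma). A larger effect in Vdr-/- than in WT mice was thus not established for any of the 10 after adjustment.

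The genotypes were then compared under each injection. These comparisons share their libraries with those of morphine against PBS and add no independent sample. After PBS, the log2 difference was below 0 for 9 of the 10 genes in the NAc (median -0.29) and for 8 in the VTA (median -0.19). Of all genes, 53.1% lay above 0 in the NAc and 49.5% in the VTA. In the NAc 0 of the 10 were called (0.069% of all genes called in either direction), as in the VTA (0.39%). The log2 difference of Xbp1 was -0.38 in the NAc (95% interval -0.55 to -0.22, adjusted p = 0.295, limma) and -0.22 in the VTA (-0.40 to -0.04, adjusted p = 0.283, limma). Pdia4 differed by -0.45 in the NAc (-0.78 to -0.12, adjusted p = 0.461, limma) and Sdf2l1 by -0.60 in the VTA (-1.12 to -0.08, adjusted p = 0.293, limma). All Vdr-/- PBS libraries lay below all WT PBS libraries for 6 genes in the NAc (Hspa5, Hsp90b1, Calr, Pdia4, Xbp1 and Creld2), against 9.68% of all genes, and for 7 in the VTA (the same 6 and Sdf2l1), against 10.7%. Dnajb9 went the other way in the VTA, with every Vdr-/- PBS library above every WT PBS library, as did 9.79% of all genes (log2 difference 0.13, 95% interval 0.02 to 0.25, adjusted p = 0.295, limma). For Xbp1 in the VTA, every Vdr-/- PBS library lay below every WT PBS library when the PBS libraries of the VTA were scaled alone. On the scale of all 24 libraries, Vdr-/- mouse 8 (998 counts) lay just above WT mouse 3 (995 counts).

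After morphine the genotypes stood close together. Of the 10 genes, 0 were called in the NAc (0.192% of all genes) and 0 in the VTA (0.0624%), with median log2 differences of 0.11 and 0.04. Hspa5 and Xbp1 were higher in each Vdr-/- than in each WT morphine library of the NAc, a pattern of 2 of the 10 genes against 6.08% of all genes. The log2 differences were 0.19 for Hspa5 (95% interval 0.05 to 0.33) and 0.16 for Xbp1 (0.01 to 0.30). In the VTA the difference of Hspa5 was 0.03 (-0.13 to 0.19) and that of Xbp1 was 0.05 (-0.10 to 0.19).

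The WT PBS mice spread more widely than those of any other group in the mean over the 10 genes, in both regions. Mouse 1 was the highest of the 3 for 9 of 10 genes in both the NAc and the VTA, and mouse 3 the lowest for 10 in the NAc and 8 in the VTA. Exceptions to mouse 1 were Dnajb9 in the NAc and Hsp90b1 in the VTA, where mouse 2 was highest. The mean log2 value over the 10 genes was 9.85, 9.64 and 9.48 for mice 1, 2 and 3 in the NAc, against 9.39, 9.41 and 9.38 for the Vdr-/- PBS mice. In the VTA it was 9.83, 9.62 and 9.58 against 9.55, 9.47 and 9.48. Without WT PBS mouse 1, the median log2 fold change with morphine in the WT NAc rose from 0.08 to 0.18 and 0 genes were called. Without it, the median genotype difference after PBS in the NAc went from -0.29 to -0.18.

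**Figure D3:**
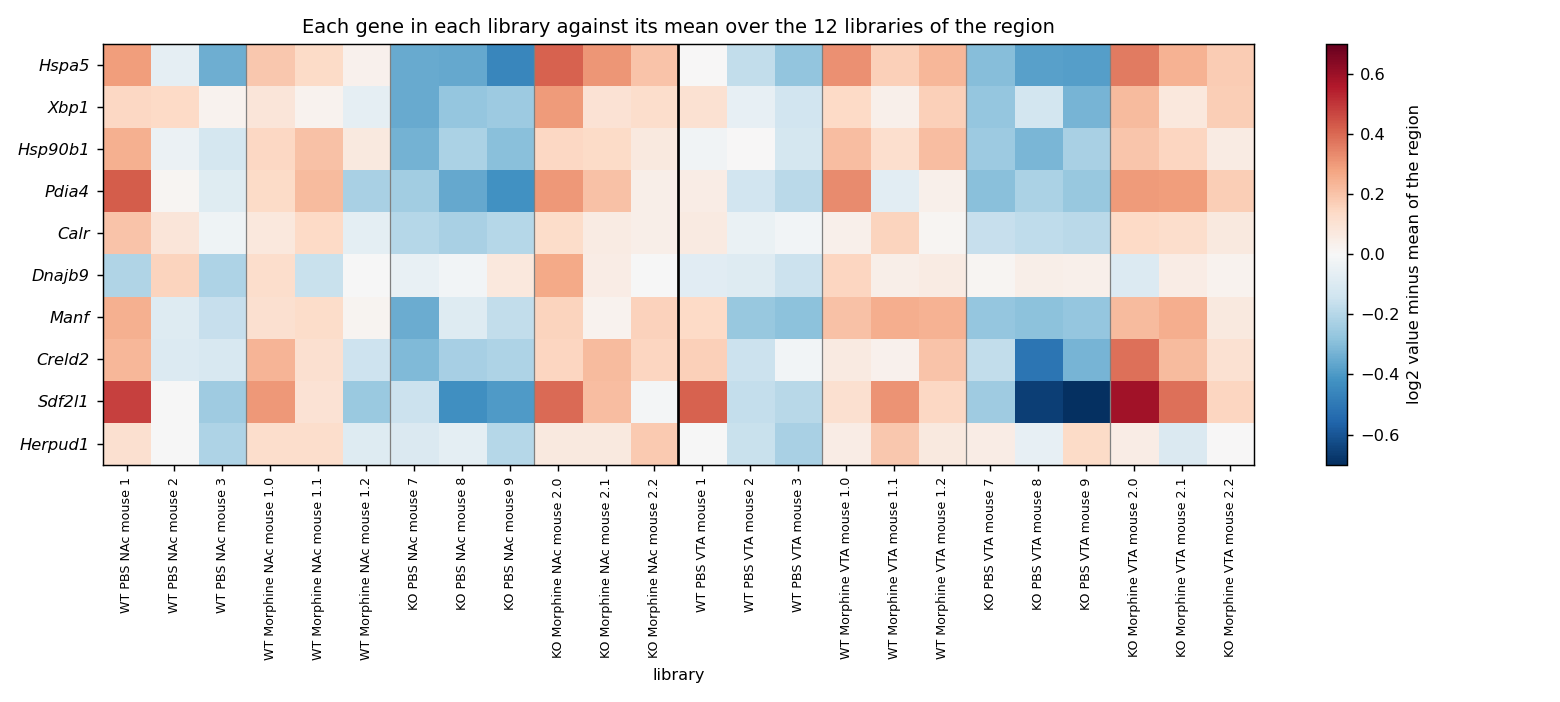
Log2 value of each gene (rows) in each library (columns) minus its mean over the 12 libraries of the region, in red where higher and blue where lower, with nucleus accumbens libraries to the left of the black line. The Vdr-/- (KO) PBS columns are blue for 8 of the 10 genes in the VTA, WT PBS mouse 1 is red for most genes, and the Dnajb9 row has a different pattern from the rest.

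Across the 24 libraries, after removing the mean of each region, the members moved together to unequal degrees. The Pearson r of a gene with the mean of the other 9 was 0.97 for Hspa5, 0.86 to 0.91 for Hsp90b1, Manf, Calr, Pdia4, Xbp1, Creld2 and Sdf2l1, 0.53 for Herpud1 and 0.13 for Dnajb9. Outside the 10, the genes most like their mean were Banp (r = 0.96), Pdia6 (0.96), Pdia3 (0.94), Zfp933 (0.93) and Dok3 (0.91). Pdia6 and Pdia3 are further disulphide isomerases of the ER, Banp and Zfp933 encode nuclear DNA-binding proteins, and Dok3 encodes a signalling adaptor. These r values describe libraries that share groups and mice.

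Regions were compared within mouse over all 24 libraries. Of the 10 genes, 4 were lower in the NAc than in the VTA (37% of all genes were called lower in the NAc). Herpud1 differed most: it ranged from 545 to 721 counts over the 12 NAc libraries and from 854 to 1136 over the 12 VTA libraries, with no overlap, at a log2 difference of -0.65 (SE 0.04, adjusted p = 5.52e-09, limma). Hsp90b1 (-0.20, SE 0.03, adjusted p = 9.48e-05, limma), Dnajb9 (-0.20, SE 0.04, adjusted p = 0.000907, limma) and Hspa5 (-0.15, SE 0.04, adjusted p = 0.00263, limma) followed. Without the mouse in the fit Hspa5 was not called (adjusted p = 0.252, limma). Calr, Xbp1, Manf, Creld2, Pdia4 and Sdf2l1 were not called, with log2 differences between -0.03 and 0.08. The morphine effect itself was not called as different between regions for any of the 10, in WT mice (6.69% of all genes called) or in Vdr-/- mice (0.545%), with median differences, NAc minus VTA, of -0.17 and 0.00. Herpud1 in Vdr-/- mice differed by 0.29 (95% interval 0.07 to 0.51, adjusted p = 0.219, limma).

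The other genes of the pathway were counted in lists. Of 21 other genes of ER folding, 7 were called higher in the Vdr-/- NAc and 5 in the Vdr-/- VTA, none lower, and 0 in WT mice of either region. Pdia6 led in both (log2 fold change 0.41 in the NAc, SE 0.06, and 0.41 in the VTA, SE 0.06), followed in the NAc by Fkbp14 (0.36), a prolyl isomerase, and Pdia3 (0.29). In the VTA Dnajc3 (0.30), a co-chaperone that inhibits PERK, and Hspa13 (0.27) followed. The medians of the list were 0.11 and 0.05, against 0.10 and 0.06 in WT mice. Between regions, 14 of these 21 genes were lower and 1 higher in the NAc than in the VTA. Of all 16147 genes tested, 5980 (37%) were called lower and 5566 higher there.

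Among 16 genes of ER-associated degradation, Edem3 was called higher in the Vdr-/- NAc (0.19). Selenos (-0.45) and another gene of the list were called lower in the Vdr-/- VTA, and 0 were called in WT mice. Of 21 genes of translocation and secretion, Sec61g (0.30), of the translocation channel, and Spcs2 (0.22), of the signal peptidase, were higher in the Vdr-/- NAc. In the WT VTA Sec24d (0.58), of the vesicle coat, was higher and Sec11c (-0.42) lower, while 0 were called in the WT NAc and the Vdr-/- VTA. Between regions, 9 genes of degradation were lower and 3 higher in the NAc, as were 8 and 5 of translocation and secretion. Of all genes 37% were called lower in the NAc, and 8 of 21 is close to that share. The medians of both lists for morphine against PBS lay between -0.07 and 0.01 in the 4 comparisons.

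Among 10 genes of sensors and their processing, Ern1 (0.38, SE 0.08, adjusted p = 0.00613, limma) and Creb3l2 (0.33) were higher and the protease gene Mbtps1 (-0.24) lower in the Vdr-/- NAc, and 0 were called in the other 3 comparisons. The log2 difference of Ern1 was 0.38 also in the WT NAc (adjusted p = 0.142, limma), 0.34 in the WT VTA and 0.12 in the Vdr-/- VTA. Atf6 (-0.14 to 0.08) and Eif2ak3 (-0.22 to -0.03) were not called in any of the 4.

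The PERK and ATF4 branch, with 24 to 26 of its 27 genes tested, had calls in both directions. Vdr-/- mice had higher NAc values after morphine for the stress gene Nupr1 (0.82), the cystine transporter Slc7a11 (0.76) and Atf4 (0.30, SE 0.06, adjusted p = 0.00715, limma), and lower ones for the serine synthesis gene Phgdh (-0.28). Of the same list, Phgdh (-0.46), Sesn2 (-0.37) and Psat1 (-0.26) were lower and none higher in the Vdr-/- VTA. In the WT NAc Atf3 (1.72, SE 0.26, adjusted p = 0.0377, limma), which is also an activity-induced gene, was higher, and in the WT VTA 0 were called. Ddit3 (CHOP) and Chac1, targets of a strong ATF4 response, were not called in any of the 4 comparisons, with log2 differences from -0.25 to 0.05 and from -0.10 to -0.04. Trib3 was not called in the NAc (-0.87 in WT and -0.42 in Vdr-/- mice) and was below the filter in the VTA.

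Heat shock genes listed as cytosolic, which answer to HSF1 and not to the ER sensors, were also called. Of these, 11 of 16 were higher in the Vdr-/- NAc and 9 of 16 in the Vdr-/- VTA, none lower, and 0 in WT mice. The list includes Hspd1 and Hspe1, whose proteins work in mitochondria. Hspa1b led with log2 fold changes of 1.55 and 2.44, uncertain because the near-identical Hspa1a can share its reads, and Hspb1 had 1.00 and 1.01. The medians of this list were 0.33 and 0.28 in Vdr-/- mice and 0.17 and 0.00 in WT mice. In the comparisons of genotypes, 0 genes of these 6 lists were called, except for Atf4 (-0.44, adjusted p = 0.0381, limma) and Ddit4 (0.70, adjusted p = 0.0419, limma) in the VTA after PBS.

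**Figure D4:**
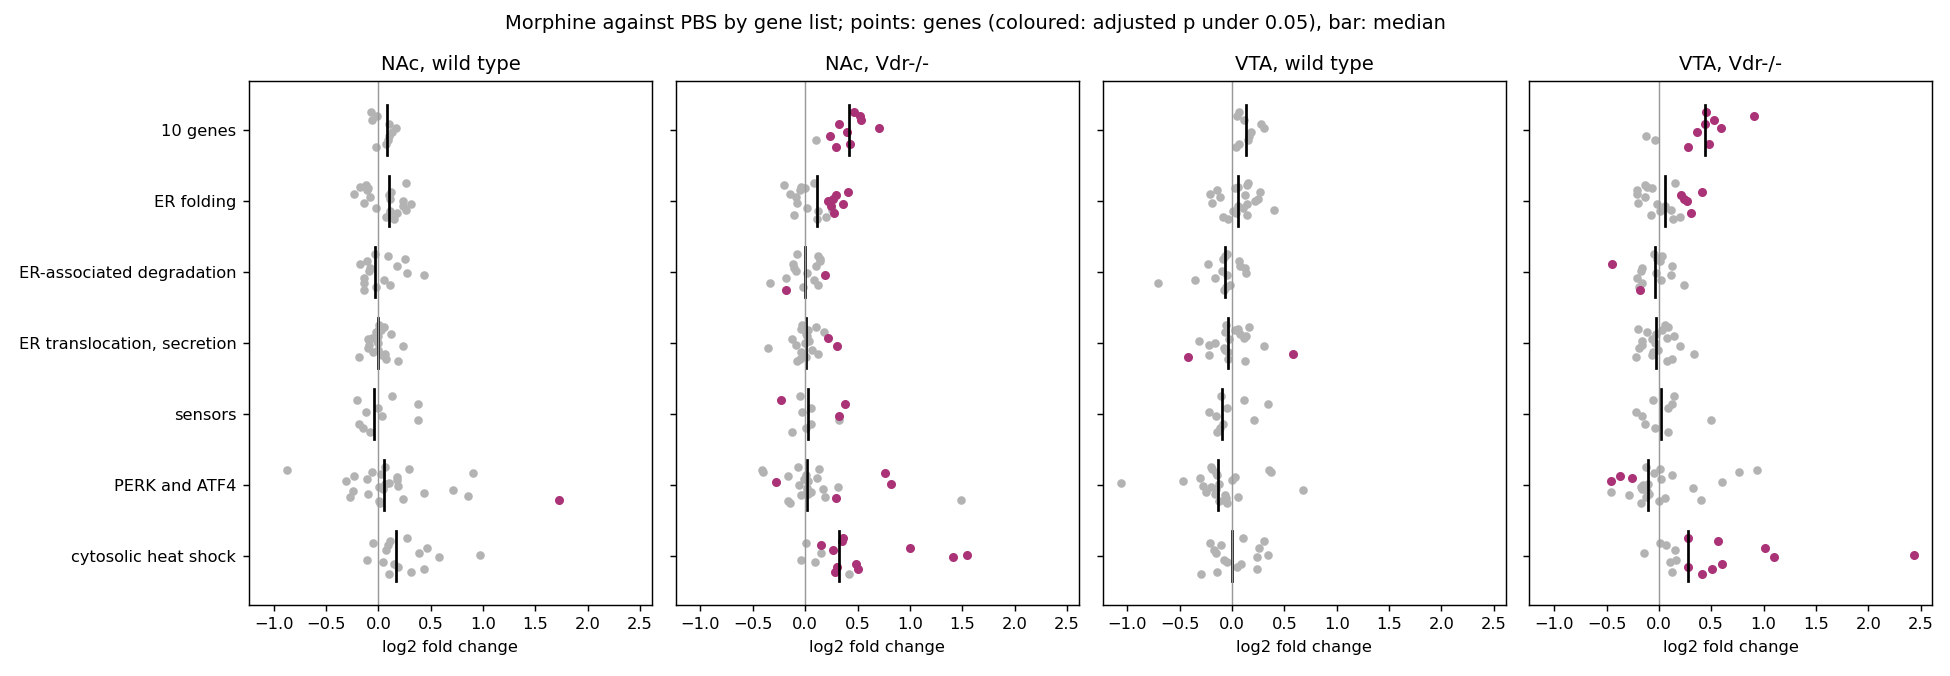
Log2 fold change of morphine against PBS (horizontal axes) for the genes of 7 lists (rows), 1 panel per region and genotype, with coloured points at adjusted p under 0.05, grey points otherwise and black bars at the list median. Coloured points of the 10 genes, ER folding and cytosolic heat shock lie to the right of 0 in the Vdr-/- panels, and the median of the 10 genes is 0.42 and 0.44 there.

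Markers of cell types moved between the same groups. Of all genes tested, 1573 of 15820 were called higher and 1445 lower with morphine in the Vdr-/- NAc. In the Vdr-/- VTA 775 of 16364 were higher and 864 lower. In the Vdr-/- NAc, 10 of 10 genes of medium spiny neurons were called lower after morphine (summed 2898 to 3356 CPM after PBS and 1920 to 2241 after morphine), 7 of 8 of the leptomeninges higher (46.8 to 50.7 and 83.5 to 111 CPM), 5 of 8 of oligodendrocytes lower (4131 to 4350.5 and 3745 to 3960.3 CPM) and 5 of 8 of microglia lower (327 to 348 and 277 to 303 CPM). Of 8 astrocyte genes 4 were higher and 1 lower there, 1 of 8 endothelial genes was higher, and of 7 dopamine neuron genes tested 1 was higher and 1 lower. The VTA of Vdr-/- mice had 8 of 8 oligodendrocyte genes lower (11920 to 12354 and 8032 to 8892 CPM), as were 3 of 8 of microglia, 2 of 8 of astrocytes and 1 of 8 of endothelium, 0 of 8 of the leptomeninges were called (94.3 to 172 and 68.3 to 217 CPM), and 2 of 10 of medium spiny neurons and 1 of 10 of dopamine neurons were higher.

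Marker genes were also called in WT mice, where 0 of the 10 genes were called. Of all genes tested, 65 of 15749 were higher and 63 lower with morphine in the WT NAc. In the WT VTA 286 of 16187 were higher and 305 lower. In the WT NAc 3 of 10 genes of medium spiny neurons were lower (3205 to 4030 and 2120 to 2756 CPM), 1 of 8 of microglia lower, and 1 of 8 each of the leptomeninges and astrocytes higher, and in the WT VTA 8 of 10 of dopamine neurons, 6 of 8 of microglia, 2 of 8 of astrocytes and 1 of 8 of oligodendrocytes were lower, with 2 of 10 of medium spiny neurons higher and 1 lower. The 8 oligodendrocyte genes had log2 differences of -1.14 to -0.74 in the WT VTA (summed 12048 to 13106 CPM after PBS and 6141 to 10073 after morphine) and of -1.36 to -0.40 in the Vdr-/- VTA, so the counts of 1 and 8 called do not show a difference between genotypes. Genes of plasma and B cells were scarcely present: of 8 listed genes, the 6 with a row in the tables summed to 1.02 to 3.15 CPM. None of these 6 was at 0 reads throughout a region, and the 1 gene that passed the filter was not called. Genes of the choroid plexus summed to 14.4 to 40.7 CPM in all libraries but Vdr-/- morphine VTA (20.0 to 141 CPM), with 1 gene called higher in each region of Vdr-/- mice. Genes of neuroendocrine neurons, cells rich in ER, summed to 2.49 to 10.1 CPM in the NAc, with 1 gene called higher in the Vdr-/- NAc. In the WT VTA they summed to 8.85 to 101 CPM after PBS and 171 to 963 CPM after morphine, without overlap, and 0 of 5 tested were called. In the Vdr-/- VTA the sums were 5.64 to 309 CPM after PBS and 67.5 to 205 CPM after morphine. In the comparisons of genotypes 0 marker genes were called. The part of these cell types in the results for the 10 genes was not tested.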

How the data were processed

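Reads of 24 libraries (directional kit, paired ends) had been processed by the submitters with CASAVA 1.8, Trimmomatic 0.36 and STAR 2.4.2a on mouse GRCm38 with a GENCODE annotation, counted per gene and scaled in DESeq2. The deposited tables hold this signal, reads divided by a size factor, for 1 pair of groups each. Multiplying back gave whole reads for 100% of values (tolerance 0.01), in the column of 1 library through its second table. Pairs were compared with limma 3.58.1 on log2(value + 1), for genes with a mean of at least 10, with p-values adjusted by Benjamini-Hochberg over all genes tested, two-sided, at 0.05. Fold changes on this scale understate those of low genes. The log2 differences between regions used reads scaled over 24 libraries. Alternatives used edgeR 4.0.16 and DESeq2 1.42.0 on the recovered reads, a pseudocount of 8, no filter or a mean of 50, TMM scaling and leaving out each mouse. Tests were checked on simulated data. Exon lengths came from GENCODE M21, in which 30204 of 30270 identifiers were found. In morphine mice the last digits of the mouse numbers were not used to pair the genotypes in the main fits, and the mouse paired the regions. The members and the lists (ER folding, degradation, translocation and secretion, sensors, PERK and ATF4, cytosolic heat shock, and 10 lists of cell type markers) were chosen with earlier results of these data known. Genes named from the lists are the sensors, Atf4, Ddit3, Trib3 and Chac1, and up to 3 called genes with the largest change per ER list and comparison of morphine with PBS; Hspa1b, Hspb1 and Ddit4 were named after their values were seen. The results of 1 gene of the degradation list are not reported here by name.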

Additional observations from a re-analysis of the deposited data

Results flagged for a closer look

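In the VTA, the tables of morphine against PBS placed every WT morphine library above every WT PBS library for Herpud1 (log2 difference 0.16, adjusted p = 0.273, limma) and every Vdr-/- morphine library below every Vdr-/- PBS library (-0.12, adjusted p = 0.256, limma). The difference between the genotypes was -0.28 and was not called (adjusted p = 0.336, limma). Vdr-/- PBS mouse 8, which the table leaves out, had 958 counts, inside the range of 929 to 1033 counts of the Vdr-/- morphine mice, so that the groups overlapped once it was counted.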

How the results depend on the processing

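The count of called genes in the Vdr-/- NAc ran from 6 (joint fit of 4 groups) to 9 over all settings, and from 7 to 8 when 1 mouse was left out. In the VTA, leaving out a PBS mouse leaves 1 PBS library, so counts with 1 mouse left out are not given here. With 1 mouse left out, the median log2 fold change of the 10 genes in the Vdr-/- VTA ran from 0.41 to 0.47. In the WT VTA DESeq2 called 1 gene (Hspa5), all 3 PBS mice gave 2, and the joint fit gave 4. DESeq2 called 1 gene in each comparison of genotypes after PBS (Xbp1 lower in the NAc, adjusted p = 0.0403, and Hsp90b1 lower in the VTA, adjusted p = 0.036), and the joint fit called 1 in the NAc (Xbp1). For the difference of the morphine effect between regions in WT mice, leaving out 1 mouse gave 0 to 1 (Pdia4 without mouse 1.1). Median log2 fold changes of the 10 genes with 1 mouse left out ran from 0.0076 to 0.18 in the WT NAc, from 0.044 to 0.22 in the WT VTA, from -0.35 to -0.18 for genotype after PBS in the NAc, from -0.0042 to 0.18 for genotype after morphine in the NAc, and from 0.20 to 0.38 for the genotype difference of the morphine effect in the VTA. TMM scaling shifted the calls over all genes in the Vdr-/- VTA from 775 higher and 864 lower to 625 and 1080. Over all genes, limma called 65 higher and 63 lower with morphine in the WT NAc, against 254 and 239 by DESeq2 and 474 and 584 in the joint fit. In the Vdr-/- NAc 1573 and 1445 became 607 and 492 in the joint fit, and in the WT VTA 286 and 305 became 693 and 665 (DESeq2), 918 and 1083 (all 3 PBS mice) and 1518 and 1590 (joint fit). On the recovered reads edgeR called 84 and 81 in the WT NAc, 1642 and 1445 in the Vdr-/- NAc, 304 and 343 in the WT VTA and 811 and 962 in the Vdr-/- VTA. For genotype after PBS, 7 higher and 4 lower in the NAc became 22 and 41 (DESeq2) or 11 and 26 (joint fit), and 42 and 22 in the VTA became 137 and 153 (DESeq2). After morphine, 11 and 19 in the NAc became 16 and 35 (DESeq2), 8 and 5 (joint fit) or 8 and 11 (replicate block), and 6 and 4 in the VTA became 54 and 41, 13 and 16, or 3 and 1. For the genotype difference in the VTA, 9 and 0 became 26 and 1 without the filter and 0 and 0 with all 3 PBS mice. For the region difference, 491 and 589 in WT and 51 and 37 in Vdr-/- mice became 345 and 364, and 28 and 21, without the filter. The cause of these changes was not tested. Of the values for single genes under other settings, 1774 kept their side of the threshold, 44 were no longer called, 13 became called and 29 uncalled values moved by more than their standard error; 0 called values changed direction.

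Blocking on the last digit of the mouse number changed no count of the 10 genes for genotypes after morphine (0 in both regions, median 0.11 in the NAc and 0.04 in the VTA). Deviations of same-numbered mice correlated at -0.06 to -0.03 in the NAc and -0.26 to -0.12 in the VTA. Mice with different digits were not set beside them, so whether the digits mark a shared set was not tested. Without the mouse as a block, 3 genes in place of 4 were lower in the NAc than in the VTA, with a median of -0.03.

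With 3 mice a group, nothing shows that a gene not called in WT mice did not respond. Sdf2l1 rests on 39 to 163 reads a library, and its interval was the widest of the 10 genes in each of the 4 comparisons of morphine with PBS.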
